A study of Ovis aries with 9 samples.

Results

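The sequences described here are small RNA reads of 18 to 24 nt from ram sperm that match the sheep genome and carry no annotation. They were chosen by 3 columns of the deposited tables: no annotation, a genome match, and a length from 18 to 24 nt. There are 581668 such distinct sequences among 3309646 in the tables, of which CON held 168704, OVER 262236 and RES 239817. The sperm came from the semen of F1 rams of wild-type genotype, the sons of ewes under standard feeding (CON), over feeding (OVER) or restricted feeding (RES), and the series asks whether a ewe's feeding in gestation alters the epigenome of her sons' sperm. The labels name no breed or age, nor how many rams stand behind a sample. The labels give 9 samples, 3 in each group, but the 3 tables of a group hold the same sequences, read counts and genome flags, so each group is 1 library here. No difference below has a replicate check and none has a test, and every interval covers counting error only. Where 3 values follow each other without a name, they are for CON, OVER and RES in that order.

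Sperm carry little cytoplasm and a small RNA pool that is known to hold fragments of tRNAs and rRNAs, miRNAs, and piRNAs left from spermatogenesis. miRNAs guide Argonaute proteins and are about as long as the reads described here, while piRNAs are longer and guide PIWI proteins, which silence transposons in the male germ line. Both kinds often begin with U, written T in these tables. A read without annotation can be a small RNA that the annotation lacked, a piece of a longer RNA, or a short sequence that occurs in the genome by chance.

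The 10 highest sequences by mean RPM (reads per 1000000 reads of a library, annotated or not) are printed first, 1 for each family, because they carry most of what follows. A family joins sequences of at least 100 reads in any library that share a run of 15 nt. A link means that 100 or more annotated reads share 16 nt with the family or with a longer read that holds 1 of its sequences. Such longer reads match the genome and have 5 or more reads in all. Only the class of annotated RNA with most linking reads was counted. Capitals mark the first 18 nt of the first sequence, runs of 3 or more G, and the 7 letters GAACTTT or their reverse complement AAAGTTC.

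28S-linked, 22 nt: CGCGACCTCAGATCAGACgtgg
G-rich, 19 nt: ccGGGtGGGacGGGagagg
AAAGTTC, 21 nt: gaAAAGTTCgttcgggttttt
GAACTTT, 22 nt: aaaaactcagatGAACTTTttg
G-rich, 18 nt: ccGGGaaagtGGGcGGGc
no link, 20 nt: tggggaaccggaccgtgggc
G-rich, 22 nt: caGGGctGGGGGaaGGGacGGG
no link, 23 nt: tgaaaatgacgtgacggacttct
no link, first 21 nt: tcaacgtcattgcagagcttt
no link, second 21 nt: actaaagattctgcacgcttt

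The libraries differ in length before any sequence is singled out. CON holds 9983895 reads, OVER 8287937 and RES 13160116. Reads of 18 to 24 nt of every kind made up 21.9% of CON, 55.2% of OVER and 31.7% of RES, while those of 25 to 42 nt were 76.4%, 31.8% and 65.0%. OVER is thus the library of short reads, and whether this comes from the rams, the RNA or the library preparation was not tested. Of the 14 cell type markers listed for this work, only 4 have an ovine miRNA name in the tables, and none of these is a germ cell marker, so the label of sperm was not checked here. Of epithelial miRNAs, oar-mir-200a stood at 161, 423 and 66.8 RPM, oar-mir-200b at 132, 326 and 32.6, and oar-mir-200c at 171, 344 and 34.5. All were highest in OVER and lowest in RES. In white blood cells oar-mir-150 is typical, and it stood at 1.20, 1.21 and 2.81 RPM. The part of other cell types in the differences below was not tested.

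Unannotated genome-matching reads of 18 to 24 nt were 4.31% of all reads in CON (95% Clopper-Pearson interval 4.30 to 4.32), 8.99% in OVER (8.97 to 9.01) and 5.70% in RES (5.69 to 5.71). In RPM that is 43118, 89923 and 57007, so OVER was 2.09-fold and RES 1.32-fold above CON. The order turns over when only reads of 18 to 24 nt are the base. There the unannotated matching reads were 19.7% (CON), 16.3% (OVER) and 17.98% (RES), lowest in OVER. The larger share of OVER thus goes with its larger share of short reads.

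Most of these sequences were rare. A single read stood behind 72.1% of the sequences (CON), 70.9% (OVER) and 65.9% (RES). In all, 88.3% of the sequences were seen in 1 library and 3.64% in all 3. The 21175 shared sequences nevertheless held 54.4% of these reads (CON), 52.8% (OVER) and 55.2% (RES). Scaled down to the 8287937 reads of OVER, 147197 distinct sequences would be expected in CON and 174215 in RES, against 262236 in OVER.

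The most frequent length was 22 nt in every library, with 23.9% of these reads (CON), 20.8% (OVER) and 24.1% (RES). The ends of the window differed more. At 18 nt stood 9.61% (CON), 18.8% (OVER) and 11.2% (RES), and at 24 nt 13.6%, 4.72% and 9.88%. The mean length was 21.3 nt (CON), 20.5 nt (OVER) and 21.03 nt (RES). In RPM, OVER was 4.08-fold above CON at 18 nt, 1.82-fold at 22 nt and 0.725-fold at 24 nt, a steady slope toward the short end. RES was 1.55-fold above CON at 18 nt and 0.962-fold at 24 nt. The reads of a library as a whole sloped the same way: their OVER to CON ratio went from 5.06 at 18 nt to 1.31 at 24 nt.

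**Figure D1:**
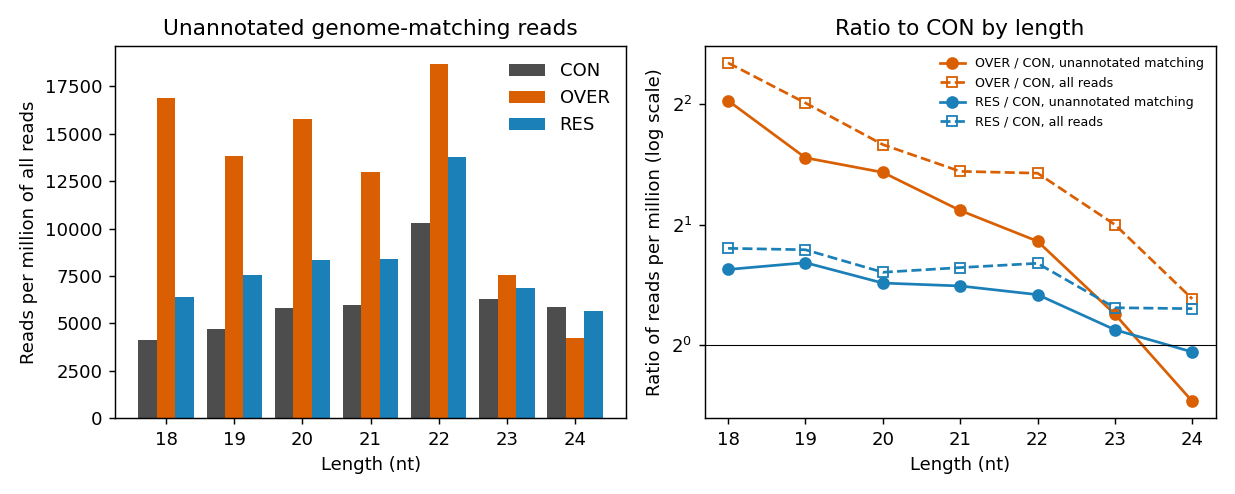
Left, unannotated genome-matching reads in RPM (bars, 1 library a group) at each length from 18 to 24 nt. Right, the ratio of OVER or RES to CON at each length on a log scale, for these reads (filled) and for all reads (open); the OVER ratio goes from 4.08 at 18 nt to 0.725 at 24 nt, and the open line lies above it at every length.

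A genome match says less about a short read than about a long one. Of the unannotated distinct sequences of 15 nt, 99.97% (CON), 99.89% (OVER) and 99.88% (RES) matched. At 18 nt the share was 78.4%, 72.0% and 80.1%, at 22 nt 53.3%, 39.0% and 57.3%, and at 24 nt 44.9%, 23.04% and 49.6%. It was higher again at 30 nt, at 67.9%, 63.5% and 71.1%. Within the window the share was thus highest at 18 nt and lowest at 24 nt in each library, and it was lowest in OVER at each length named from 18 to 30 nt. How many of the 18 and 19 nt sequences match by chance was not tested.

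**Figure D2:**
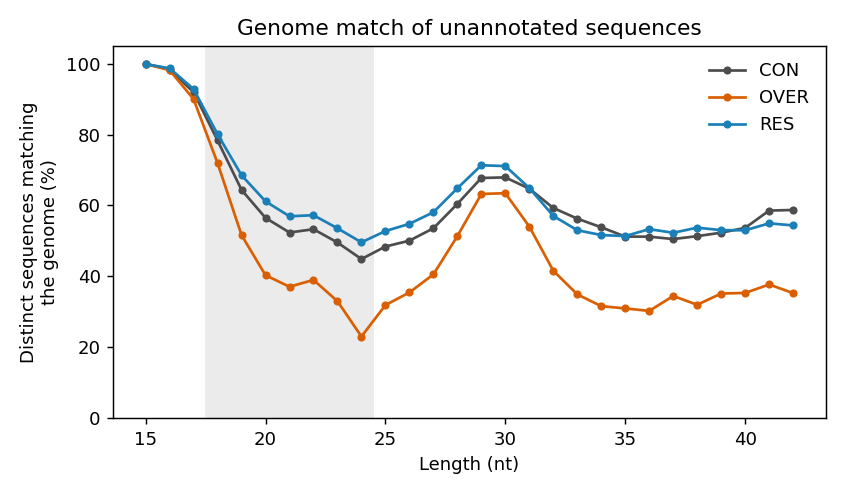
Share of unannotated distinct sequences that match the genome (percent) at each length from 15 to 42 nt, 1 line for each library, with the window of 18 to 24 nt shaded. The lines go down from 18 nt (CON 78.4%, OVER 72.0%, RES 80.1%) to 24 nt (44.9%, 23.04% and 49.6%) and come back up near 30 nt.

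C was the most frequent first base in CON, at 36.3% against 33.5% for T, while T led in OVER, at 37.0% against 30.8%. In RES both were close, with 34.8% T and 34.5% C. Part of the C came from few sequences. Without the sequences of 100 reads or more in any library, T was first with 37.8% (CON), 41.8% (OVER) and 40.7% (RES), and C followed with 30.9%, 24.2% and 26.3%. T was more frequent at 23 nt, with 40.6%, 50.0% and 42.6%, than at 18 nt, with 27.3%, 28.4% and 26.6%. Unannotated matching reads of 25 to 42 nt began with T in 60.6% of reads (CON), 75.0% (OVER) and 68.7% (RES). That range is not limited to piRNAs. It also holds the 5S-linked 37 nt read printed below, which begins with T and had 8945, 929 and 7995 RPM. Annotated matching reads of 18 to 24 nt began with T in 40.4%, 32.9% and 34.9%.

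**Figure D3:**
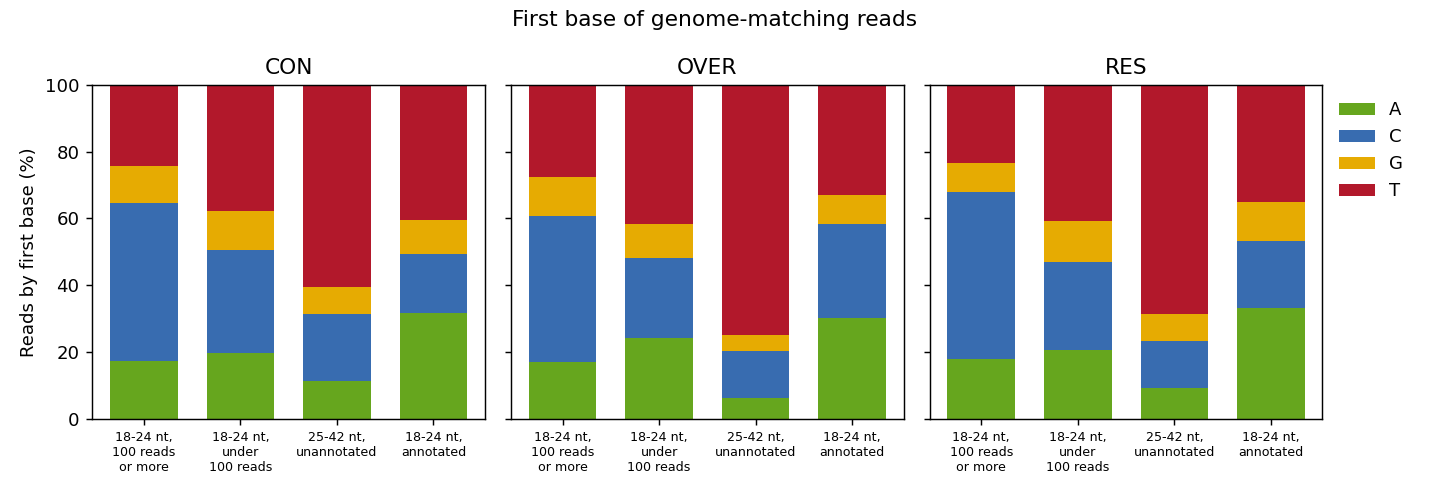
First base of genome-matching reads (percent of reads, stacked) in CON, OVER and RES for 4 sets: unannotated sequences of 18 to 24 nt with 100 reads or more in any library, those under 100 reads, unannotated reads of 25 to 42 nt, and annotated reads of 18 to 24 nt. C is the widest band in the first set (CON 47.3%, OVER 43.8%, RES 50.3%) and T among reads of 25 to 42 nt (60.6%, 75.0% and 68.7%).

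Many of the reads had letters found in longer reads of the same library. As exact substrings on the same strand, 71.9% of reads (CON), 68.5% (OVER) and 75.1% (RES) lay inside a longer read, and 65.0%, 55.2% and 67.1% lay inside one of 25 to 42 nt. The shares were lower, at 44.7%, 45.0% and 49.3%, where the longer read had to have at least 10 reads, and 31.7%, 27.5% and 31.0% where it had to outnumber the shorter one. A match of letters does not show that a read is a piece of the longer one. None lay inside a longer annotated read in any library. The reads were chosen for having no annotation, so this count may be fixed by the choice and says nothing of their origin. The most abundant longer read shared its 5′ end with the shorter one for 55.3% of these reads (CON), 61.01% (OVER) and 59.6% (RES). It shared the 3′ end for 29.5%, 28.8% and 25.6%, and the rest matched inside it. At 1 mismatch from an annotated read of the same length stood 1.40%, 2.52% and 2.04% of reads. Near copies of another length or with more mismatches were not searched for.

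The libraries were compared on the sequences that reached 100 reads over the pair, 631 of them for OVER and CON. OVER was the higher by 2-fold or more for 336 (53.2%) and the lower for 63 (9.98%). Over every sequence in the tables at that depth, 34.5% were higher and 34.7% lower, and over the other sequences of 18 to 24 nt 55.3% were higher and 7.87% lower. The share was thus above that of all sequences and near that of other sequences of the same length. The median log2 ratio was 1.19, beside -0.08 for all sequences and 1.23 for the others of 18 to 24 nt. Scaled to the reads of the unannotated matching set itself, 190 were higher and 159 lower.

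In RES against CON, 220 of 673 were at least 2-fold higher (32.7%) and 25 lower (3.71%). The share over all sequences was 26.8% higher and 13.9% lower, and over other sequences of 18 to 24 nt 40.9% and 8.09%. The median log2 ratio was 0.58, beside 0.20 for all sequences and 0.70 for the others of that length. Scaled to the reads of the set itself, 135 were higher and 53 lower.

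OVER against RES gave 301 of 861 higher (34.96%) and 164 lower (19.05%). The share over all sequences was 25.4% higher and 37.8% lower, and over other sequences of 18 to 24 nt 35.5% and 19.0%. This split depends on the scaling: with edgeR's TMM it was 424 higher and 108 lower, with DESeq2 size factors 448 and 97, and scaled to the reads of the set itself 165 and 256. The median log2 ratio of 0.55 became -0.11 under the last of these, so the direction turned. The 3 comparisons share libraries and are not independent of each other.

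Of the 581668 sequences, 591 reached 100 reads in at least 1 library: 240 (CON), 373 (OVER) and 448 (RES), and 166 in all 3. These leading sequences held 32.7% of the reads (CON), 33.7% (OVER) and 34.2% (RES) and fell into 338 families. At the limit, 66 sequences peaked at 90 to 99 reads and 58 at 100 to 109 reads. The families were grouped after their sequences had been seen, by shared runs of 16 nt with annotated reads and by their letters. In 75 families (97 leading sequences) many longer reads did not match the genome, by limits given with the processing, or there was too little to tell at 18 or 19 nt. They were set apart, their sequences are not shown, and they held 2.17%, 2.61% and 1.98% of the reads. For OVER against CON 54 of 90 such sequences were higher by 2-fold or more and 4.44% lower. Of other 18 to 24 nt sequences 55.3% were higher and 7.87% lower. The sequences set apart had the larger median log2 ratio, at 2.48 against 1.23. In OVER against RES 57.4% of 94 were higher and 13.8% lower, beside 35.5% and 19.0% of the others. In RES against CON 30.4% of 56 were higher and 5.36% lower, beside 40.9% and 8.09%. Of the 263 families kept, 13 had more longer reads that do not match than longer reads that match, leading sequences not counted. They are 4 families with GAACTTT or AAAGTTC, 3 G-rich ones and 6 without a link. Of the sequences printed above, those of the G-rich 19 nt, the GAACTTT 22 nt, the no link 20 nt and the first 21 nt sequence are among them. Group sequences A and B, printed below, are among them too.

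The family with most reads was linked to 28S rRNA, a core RNA of the large ribosomal subunit. The link rests on 26205 annotated 28S reads that share 16 nt with the family or its longer reads. The family's leading letters are those with which mature 28S rRNA begins in mammals. Its 12 leading sequences held 10.01% of the reads (CON), 10.97% (OVER) and 9.62% (RES). The reads form a ladder with 1 shared 5′ end, printed to show where they stop:

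22 nt: CGCGACCTCAGATCAGACgtgg
20 nt: CGCGACCTCAGATCAGACgt
37 nt: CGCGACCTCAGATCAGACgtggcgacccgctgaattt

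The 22 nt sequence had 30527 reads in CON (3058 RPM), 38835 in OVER (4686 RPM) and 52247 in RES (3970 RPM). This is the most abundant of all the sequences described here, and OVER and RES were 1.53-fold and 1.30-fold above CON. The 20 nt form had 863 RPM (CON), 4222 (OVER) and 774 (RES). The 37 nt form had 2682 RPM (CON), 23.3 (OVER) and 1673 (RES). OVER was thus highest for the 20 nt form and far below both other libraries for the 37 nt form. Counting every genome-matching read that begins with the capital letters, the ladder summed to 11871 RPM (CON), 10604 (OVER) and 10344 (RES). Its total was close in the 3 libraries while its lengths were not: 36.3% of it was 18 to 24 nt long (CON), 92.9% (OVER) and 52.9% (RES). The ratio of all 22 nt to all 20 nt reads of the ladder was 3.56 (CON), 1.11 (OVER) and 5.13 (RES).

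A second ladder was linked to 5S rRNA, the small RNA of the large ribosomal subunit, through 32912 annotated 5S reads, and its letters are those at the 3′ end of 5S rRNA. Here the 3′ end is shared and the 5′ end moves, as the capitals at the right show:

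24 nt: gggaatACCGGGTGCTGTAGGCTT
25 nt: tgggaatACCGGGTGCTGTAGGCTT
37 nt: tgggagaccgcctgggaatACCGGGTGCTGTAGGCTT

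The 24 nt form had 126 RPM (CON), 146 (OVER) and 89.4 (RES), and the 37 nt form had 8945, 929 and 7995 RPM. Reads of 18 to 24 nt were 2.01% of this ladder (CON), 22.5% (OVER) and 2.18% (RES). Unlike the 28S ladder, its total was lower in OVER, at 2790 RPM against 15737 in CON and 13432 in RES. The 22 leading sequences of this family held 1.21%, 1.03% and 0.765% of the reads. Both ladders had a larger part in the window in OVER than in CON or RES.

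**Figure D4:**
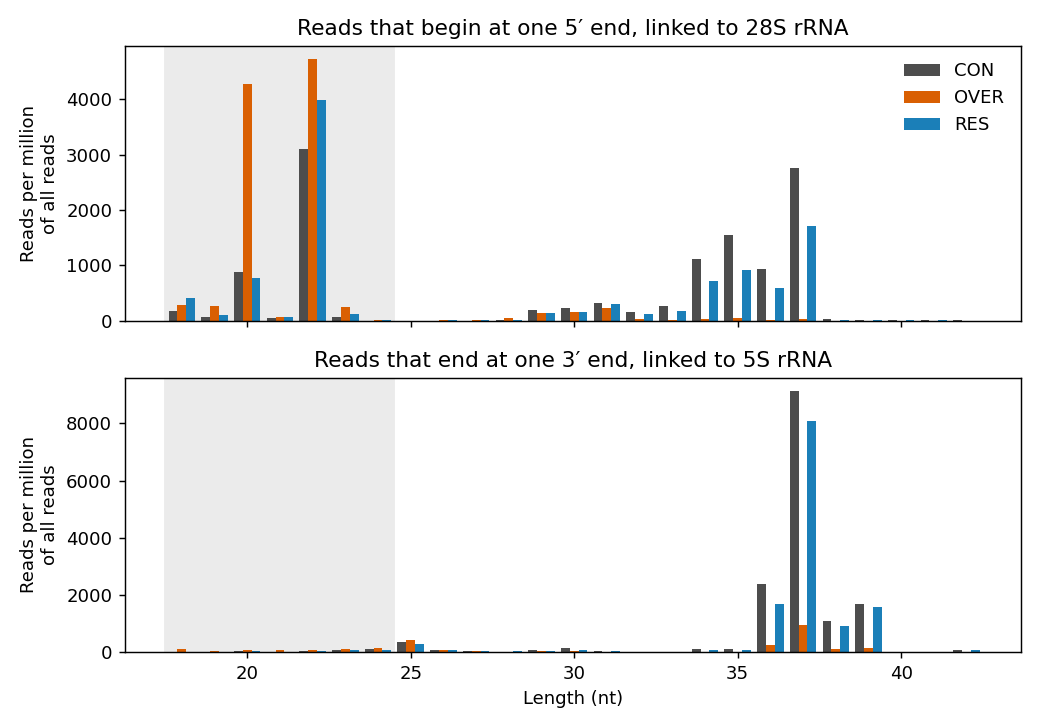
RPM at each length from 18 to 42 nt for genome-matching reads with the shared 5′ end of the 28S-linked family (top) and the shared 3′ end of the 5S-linked family (bottom), 1 library a group, with the window of 18 to 24 nt shaded. In OVER the 28S ladder stands at 20 and 22 nt, with 92.9% of it in the window, against 36.3% in CON.

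The same was counted over leading sequences, except those set apart, that are the start or end of a longer read, those of both ladders included. Kept were sequences whose most abundant genome-matching longer read was of 25 to 42 nt, and each of the pair needed at least 100 reads over the libraries compared. For OVER and CON there were 59 that shared the 5′ end with the longer read. In 55 of the 59 the OVER to CON ratio was larger for the short sequence than for the long one. The median log2 ratio was 1.02 for the short sequences and -1.51 for the long ones, whose median length was 29.0 nt. Of 37 that share the 3′ end with the longer read instead, the short sequence had the larger ratio in 36. For RES against CON the short sequence had the larger ratio in 52 of 70 that share the 5′ end, with medians of 0.90 and -0.11. Sequences of a family can share a longer read, so these are not counts of independent cases, and the families behind them were not counted. An example is shown with its longer read:

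18 nt: tgggaatctgtgatctag
29 nt: tgggaatctgtgatctagagatgaagggt

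The 18 nt sequence had 2 reads (CON), 113 (OVER) and 38 (RES), and the 29 nt read had 120, 35 and 193. The short form was highest in OVER and the long form lowest there. All these sequences share the length difference between the libraries given above.

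A group of 11 families shares the letters GAACTTT or AAAGTTC, and they are shown because most of them stood highest in OVER. Runs of this kind are known from the mature miRNAs of a large miRNA family of cattle and other ruminants. No table of mature miRNAs was used here, and the sequences are given no miRNA name. Of the 11 families 6, or their longer reads, share 16 nt with annotated reads, counted in the class with most. That of the top AAAGTTC sequence does so with 412 miRNA reads. Those of group sequences A and C do so with 1265 and 428 reads annotated as antisense, and the other 3 with 4 to 77 reads. The families below represent the group:

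longer by 1 nt than the top AAAGTTC sequence: tgaAAAGTTCgttcgggttttt
group sequence A: gaaactggaacGAACTTTttgg
group sequence B: aaacaccgggatGAACTTTttgt
group sequence C: aaaaacctgaagGAACTTTttg

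Their 55 leading sequences summed to 1411 RPM (CON), 6739 (OVER) and 2231 (RES), and 92.3%, 90.4% and 93.2% of those reads were 21 to 23 nt long. The AAAGTTC sequence of 21 nt had 2125 reads (CON), 12339 (OVER) and 4172 (RES), or 213, 1489 and 317 RPM. OVER was 6.99-fold above CON and RES 1.49-fold. The GAACTTT sequence of 22 nt had 129, 617 and 383 RPM, so that both OVER (4.80-fold) and RES (2.98-fold) were above CON. Group sequence A had 61.3, 214 and 107 RPM and group sequence C 15.3, 132 and 40.7 RPM, both highest in OVER. Group sequence B was more even, with 97.96, 140 and 72.3 RPM, and RES was its lowest. Of 54 leading sequences of the group that reached 100 reads over OVER and CON, 47 were higher in OVER by 2-fold or more and 1 was lower, with a median log2 ratio of 2.14. The group was chosen for this order, so the count describes the choice and supports nothing, and of other 18 to 24 nt sequences 55.3% were higher. In RES against CON 36.96% of 46 were at least 2-fold higher, with a median of 0.69, near the 40.9% and 0.70 of other sequences of 18 to 24 nt.

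The exception is 1 base away from the GAACTTT sequence of 22 nt. Counted from the 5′ end, the substitution is G10A:

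first sequence: aaaaactcagatGAACTTTttg
second sequence: aaaaactcaaatGAACTTTttg

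The second had 102 reads (CON), 3 (OVER) and 21 (RES), where the first had 1283, 5110 and 5046. Its order over the libraries was the opposite, with CON highest. Its OVER to CON log2 ratio was -4.82 with a counting interval from -7.12 to -3.23.

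Over all unannotated matching sequences of the window, GAACTTT or AAAGTTC, on either strand, was in 0.648% of the distinct sequences (CON), 0.746% (OVER) and 0.613% (RES). These held 3.88%, 8.45% and 4.61% of the reads. Of annotated matching reads of that length, 4.24% (CON), 6.22% (OVER) and 8.43% (RES) held the letters. Of the distinct unannotated sequences of that length that do not match the genome, 0.406%, 0.346% and 0.397% held them. These were 0.623%, 0.594% and 0.830% of the reads that do not match. Among annotated miRNA reads with these letters nearly all were oar-mir-148a: 52779 reads in CON, of which 1810 remain without it. Reads with AAAGTTC alone were 628 RPM (CON), 4202 (OVER) and 901 (RES), and reads with GAACTTT were 1047, 3392 and 1727 RPM. OVER was highest for both strands. Of the 16723 (CON), 62939 (OVER) and 34576 (RES) reads with either run, the group's leading sequences held 14083, 55851 and 29366. This order thus mostly repeats the values for which the group was chosen.

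Families with 3 or more separate runs of GGG did not share that order. Sequences with several runs of G can fold into a G-quadruplex, a stack of guanines that is known from telomeres and promoters. Whether 3 runs in a read are enough for this was not tested. Their 136 leading sequences in 84 families summed to 3311 RPM (CON), 3285 (OVER) and 5166 (RES). Such sequences of the window, leading or not, stood at 7430, 6407 and 10989 RPM, or in 17.2% of the reads (CON), 7.12% (OVER) and 19.3% (RES). In unannotated matching reads of 25 to 42 nt the shares were 15.8%, 4.92% and 14.8%. OVER was lowest in both length ranges.

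Sequences of this group differed in their order over the libraries. The G-rich sequence of 19 nt had 3756 reads (CON), 8750 (OVER) and 14790 (RES) (376, 1056 and 1124 RPM), above CON in both. The one of 18 nt followed it with 166, 349 and 400 RPM. The one of 22 nt had 250 RPM (CON), 135 (OVER) and 390 (RES) and was lowest in OVER. Reads of 18 to 20 nt were 43.2% of the group's leading reads (CON), 76.1% (OVER) and 59.2% (RES). Against CON, 11 of 101 leading sequences of the group were higher in OVER by 2-fold or more (10.9%) and 36 were lower (35.6%), with a median log2 ratio of -0.46, beside 55.3%, 7.87% and 1.23 for other sequences of 18 to 24 nt. In RES 42.96% of 135 were at least 2-fold higher than in CON, with a median of 0.78, near the 40.9% and 0.70 of other sequences of that length.

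A further 158 families, called no link, had neither kind of letters and fewer than 100 linking reads in any class of annotated RNA. Annotated reads shared 16 nt with 39 of them or their longer reads, 98 at most in the class with most. The 254 leading sequences of the 158 families summed to 3484 RPM (CON), 6901 (OVER) and 4809 (RES). T was their first base in 62.6% of reads (CON), 75.8% (OVER) and 64.04% (RES), and their most frequent length was 23 nt in CON and 22 nt in the others. The 20 nt sequence printed above had 214, 343 and 347 RPM. The 23 nt sequence had 204, 377 and 122 RPM, the lowest value being in RES. The first 21 nt sequence had 88.7, 241 and 154 RPM, and the second had 34.7, 268 and 92.6 RPM. The second differed most, with OVER 7.72-fold and RES 2.67-fold above CON. The last 8 families (15 leading sequences) were linked to 100 or more other annotated reads, mostly of long non-coding RNAs or miRNAs, and held 0.238%, 0.224% and 0.410% of the reads.

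**Figure D5:**
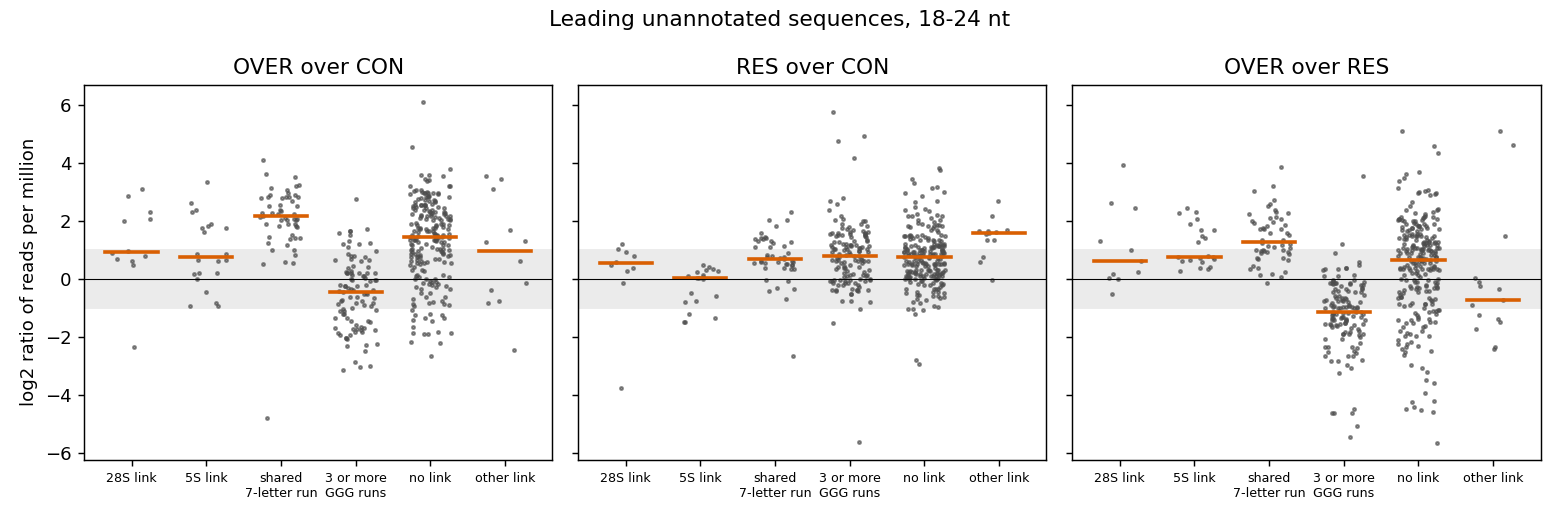
log2 ratio of RPM for each leading sequence that reached 100 reads over the pair of libraries (points), by group, with the group's median (orange line) and the range under 2-fold shaded. Sequences with the shared 7 letters have a median of 2.14 for OVER over CON and those with 3 or more GGG runs a median of -0.46.

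The sequences with the largest ratios had few reads in 1 of the libraries. Families entered these lists by their most extreme sequence and are shown by their most abundant one. Families set apart were passed over, 23 of them for OVER above CON, 19 for OVER above RES and 2 or 3 in each of the other lists. The highest for OVER against CON, beside the 18 nt start shown above and the AAAGTTC family, were these:

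no link, 19 nt: tgactgtaagacaatgtgt
no link, 20 nt: ataccaacttgaaggactgt
no link, 22 nt: tcttctggatttgtgagacggt

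The 19 nt sequence had 10 reads (CON), 192 (OVER) and 73 (RES), and OVER was 23.1-fold above CON (log2 interval 3.62 to 5.61). The 20 nt sequence had 12, 118 and 58 reads, with OVER 11.8-fold above CON (log2 interval 2.71 to 4.56). Both were lowest in CON. The 22 nt sequence had 325, 1561 and 480 reads, so RES was near CON and OVER was 5.79-fold above it.

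Lowest in OVER against CON were the GAACTTT variant given above and 4 G-rich families, 1 of which was lowest in RES too:

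G-rich, 24 nt, first: caGGGcttGGGtgatGGGtggtgg
G-rich, 23 nt: taGGGtctGGGGtacaGGGaGGG
G-rich, 24 nt, second: cGGGGGtcGGGtgtGGGcctGGGG
G-rich, 22 nt: cGGGGGtacaGGGGagcGGGGc

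The first had 378 reads (CON), 38 (OVER) and 10 (RES), so CON was 8.26-fold above OVER and 49.8-fold above RES. In contrast, the 23 nt sequence had 1358, 275 and 1319 reads, and the last 2 had 98, 10 and 101 and 96, 11 and 167 reads. These 3 were low in OVER only, with RES within 1.5-fold of CON.

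A few G-rich sequences were read mostly in RES, and they lead the comparison of RES with CON:

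G-rich, 22 nt: ctGGGaaggaggcgtGGGaGGG
G-rich, first 21 nt: taGGGctGGGcctGGGctGGG
G-rich, second 21 nt: ctGGGcGGGcGGGGagtggcc
no link, 24 nt: ctttgatcctgttgtctggagatc
no link, 18 nt: atgtattgtaaggatatc

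The 22 nt sequence had 0 reads (CON), 0 (OVER) and 210 (RES), and the first of 21 nt had 0, 0 and 118. With 3 reads set in place of 0, RES was 53.1-fold and 29.8-fold above CON. The log2 intervals were 4.16 to 8.02 and 3.32 to 7.20. The second of 21 nt had 15, 0 and 119 reads. Of the others, the 24 nt sequence had 8, 5 and 147 reads, high in RES alone, and the 18 nt sequence had 8, 50 and 141, low in CON alone. Lowest in RES against CON, beside the first G-rich sequence of 24 nt, the GAACTTT variant and the 28S-linked family, were a sequence of 23 nt without a link and another G-rich one:

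no link, 23 nt: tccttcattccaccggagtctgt
G-rich, 24 nt, also low in OVER: aGGGGctGGGaaGGGatgtcaGGG

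The 23 nt sequence had 389 reads (CON), 320 (OVER) and 66 (RES), and the G-rich one 215, 46 and 99. The 28S-linked family entered this list through a rare sequence with a log2 ratio of -3.77, not through its main form. The first of the pair was low in RES alone, at a log2 ratio of -2.96 (interval -3.36 to -2.58).

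Between OVER and RES, 2 more families stood highest in OVER and 2 more lowest:

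higher in OVER, no link: tagccatttagatcttgaaac
higher in OVER, miRNA link: aataagttcgtttgggttttt
lower in OVER, no link: tgtactactgttaacttgcttt
lower in OVER, G-rich: caGGGcaGGGctgtGGGcGGGcc

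The higher pair had 36 reads (CON), 172 (OVER) and 8 (RES), and 46, 410 and 27. RES was below CON in both, and OVER was 34.1-fold and 24.1-fold above RES. Of the lower pair, the first had 21, 0 and 240 reads. With 3 reads set in place of 0, RES was 50.4-fold above OVER (OVER to RES log2 interval -7.94 to -4.09). The second had 18, 2 and 107 reads (OVER to RES log2 ratio -5.07, interval -8.14 to -3.19).

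Simple repeats of units of 1 to 6 nt were rare. There were 87 such sequences, none of which reached 100 reads, and they held 0.023% of the reads (CON), 0.016% (OVER) and 0.031% (RES). The highest, with 11, 22 and 22 reads, was:

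18 nt repeat: ttggttggttggttggtt

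The next 4 highest, between 5 and 29 reads in a library, were built of T, G and C.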

How the data were processed

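Small RNA was sequenced from ram sperm treated with a somatic cell lysis buffer, per the labels' protocols. The authors deposited a table of distinct sequences per sample with raw read counts, length, genome flag and annotation. edgeR is named in the submitters' processing notes. For the aligner, the annotation tool and the build, the sources used here give no name, and no coordinates are printed. The 3 tables of each group hold identical counts, so each group was 1 library (8287937 to 13160116 reads), and no edgeR quasi-likelihood test was run. A single library and a pool cannot be told apart.

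Counts were scaled to RPM, reads per 1000000 reads of the library. Log2 ratios carry exact binomial 95% intervals and shares Clopper-Pearson 95% intervals; both cover counting error only, since the reads carry no molecular identifiers. In ratios 3 reads took the place of a count of 0, equal to 0.300 RPM (CON), 0.362 RPM (OVER) and 0.228 RPM (RES). Ratios needed 100 reads in the 2 libraries together. Named are the 10 highest sequences by mean RPM and the 5 highest and 5 lowest log2 ratios of each comparison, 1 per family. The members and lists were chosen with earlier results of these data known; the groups of families, the sets left unprinted and the pairs of shorter and longer reads were chosen after their values were seen. The planned match to mature miRNAs was not made. Families were grouped by the 7 letters, then by 100 or more annotated 28S or 5S reads sharing 16 nt, then by GGG runs, then by 100 or more other annotated reads. Set apart were families in which longer reads that do not match the genome outnumbered the matching longer reads and the family's own reads together. So were those in which non-matching reads with an extended 5′ end, or longer by 4 nt or more at one end, numbered at least 10, outnumbered the matching ones and came to 5% or more of the family's own reads. A lone sequence with 10 or more longer reads, none matching, was set apart too, as were families under 20 nt with fewer than 10 matching longer reads. Scripts were tested on simulated data. Alternatives were edgeR TMM and DESeq2 size factors, other denominators, weights and read minimums. Python 3.11.15, pandas 2.3.3, scipy 1.17.1, edgeR 4.0.16 and DESeq2 1.42.0 were used.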

Additional observations from a re-analysis of the deposited data

How the results depend on the processing

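No paired analysis was possible because the 3 tables of a group hold the same counts; leaving out a replicate was not run for the same reason. Values are given for CON, OVER and RES in turn. The share of all reads became 5.54%, 10.99% and 6.63% of genome-matching reads, 19.7%, 16.3% and 17.98% of reads of 18 to 24 nt, 3.43%, 5.92% and 4.30% in a window of 20 to 24 nt, and 3.88%, 8.01% and 5.15% without the family with most reads, the last an alternative chosen after seeing the data. The order of the libraries changed only with the second. First-base T was 35.3%, 37.3% and 36.6% over distinct sequences, 37.8%, 41.8% and 40.7% without leading sequences, and 37.2%, 41.5% and 38.5% without the largest family. The mean length was 21.2, 20.2 and 20.98 nt over distinct sequences, 21.3, 20.3 and 21.002 nt without leading sequences, and 21.3, 20.4 and 20.99 nt without the largest family. Inside longer reads lay 65.0%, 55.2% and 67.1% for longer reads of 25 to 42 nt, 44.7%, 45.0% and 49.3% for longer reads seen at least 10 times, and 44.7%, 33.3% and 45.9% of distinct sequences.

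Numbers at least 2-fold higher and lower moved by over 1.5 times under these settings. Scaled to the reads of the set itself they were 190 and 159 (OVER against CON), 135 and 53 (RES against CON) and 165 and 256 (OVER against RES). From 20 reads they were 2251 and 384 of 3852, 1541 and 307 of 4018, and 1945 and 981 of 5109. The lowest minimum still left out most sequences. With it they were 11696 and 2380 of 23573, 6998 and 3340 of 25489, and 13280 and 4767 of 31893. These counts rose with the number tested, and the shares moved less. For OVER against CON the share higher went from 53.2% to 58.4% and 49.6%, and the share lower from 9.98% to 9.97% and 10.1%. The largest move was in RES against CON, where the share lower went from 3.71% to 7.64% and 13.1%. With DESeq2 size factors 39 were lower in RES than CON and 97 lower in OVER than RES, and with TMM 108. Relative to RPM, log2 ratios moved by 0.19, -0.23 and 0.42 with TMM and by 0.28, -0.24 and 0.52 with DESeq2 size factors. Leaving out the families set apart, also chosen after seeing the data, kept each count within 1.5 times. Of 228 rescaled ratios of printed sequences, 0 at least 2-fold changed sign and 17 crossed 2-fold. Counts under about 20 reads give wide intervals.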
